A study of Danio rerio with 3 samples.

Results

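The Zic family and *casz1* were followed through 3 stages of zebrafish hindbrain development. The 7 genes described here, *zic1*, *zic2a*, *zic2b*, *zic4*, *zic5*, *zic6* and *casz1*, were chosen by symbol from the 27282 genes of each count table, and all 7 are listed in all 3 tables. Cells came from the dissected hindbrain and surrounding tissues of wild-type (wt) LondonAB embryos at 16, 24 and 44 hours post fertilisation (hpf), with growth temperatures of 25, 28.5 and 25°C in turn. Tissues of a stage were pooled into 1 droplet library (10x Chromium, 3′ end), so each stage is 1 sample and there is no replicate check. Stage, library and growth temperature cannot be told apart.

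Zic genes encode zinc finger transcription factors whose DNA-binding domain is related to that of the Gli and Glis proteins. They are known for their expression in the dorsal neural tube and neural crest territory, and in mouse and frog they take part in neural crest induction and in keeping dorsal progenitors undifferentiated. Many vertebrate Zic genes lie in head-to-head pairs. *casz1* encodes a separate zinc finger factor, the vertebrate relative of *castor*, which in *Drosophila* acts in the temporal sequence of neuroblasts, and in mouse Casz1 controls the timing of fates in retinal progenitors.

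The libraries held 2929, 2568 and 3529 cells at 16, 24 and 44 hpf, of which 2725, 2337 and 3097 were kept. Kept cells had a median of 9940, 7852 and 2605 unique molecular identifiers (UMIs, each the count of 1 captured transcript), so the 44 hpf library was the shallowest. The libraries shared few cell barcodes, 37 barcodes being present in more than 1 library. A level is the UMI total of a gene in all cells of a group, scaled to 1000000 UMIs of that group (CPM), with its 95% Poisson interval in brackets. Intervals cover counting error only. Without replicates no p-value is given, and a gene was counted as higher or lower when 2 groups differed at least 2-fold with at least 20 UMIs over both.

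Cells were grouped by genes other than the 7. Progenitors had *sox3*, a transcription factor of neural progenitors, and no *elavl3*, an RNA-binding protein of differentiating neurons, and they numbered 1233, 675 and 549. Neurons had *elavl3* and numbered 592, 1026 and 1949. Most of the neurons at 16 and 24 hpf also had *sox3*, 571 of 592 and 958 of 1026, and *sox3* was at least as high there (1829 and 1888 CPM) as in progenitors (1695 and 1473 CPM), so at these stages the group is mainly one of cells with both genes. Crest cells, with at least 2 UMIs of *sox10* and *foxd3* together and no *elavl3*, numbered 296, 35 and 35. Cells with these crest genes and *elavl3* could thus fall among the neurons. The other non-neural cells, with at least 3 different markers of epidermis, mesenchyme, vessels, blood or the otic and cranial ganglia (a list of *eya1*, *six1b*, *neurod1*, *oc90* and others), numbered 552, 562 and 381. Cells with *elavl3* were not excluded from this group. Its otic and cranial ganglia list held 22, 91 and 97 cells with at least 2 UMIs of *elavl3*, so the group is not free of neurons.

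In progenitors, *zic1*, *zic4* and *casz1* were higher at 24 than at 16 hpf, and *zic2b* was far lower at 44 than at 24 hpf. *zic1* was at 48.1 CPM (44.2 to 52.2), 115 CPM (106 to 125) and 135 CPM (118 to 154) at 16, 24 and 44 hpf. *zic4*, its neighbour in the genome, was at 34.2 CPM (30.9 to 37.7), 102 CPM (93.5 to 111) and 95.1 CPM (80.7 to 111). Both were thus lowest at 16 hpf, and the 24 and 44 hpf intervals of each overlapped. *casz1* was at 23.1 CPM (20.4 to 26.0), 89.7 CPM (81.8 to 98.1) and 48.8 CPM (38.6 to 60.8). Its 3 intervals did not overlap and 24 hpf was the highest.

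*zic2b*, one of the duplicated zebrafish copies of Zic2, was at 264 CPM (255 to 274) and 305 CPM (290.3 to 320.2) in progenitors at 16 and 24 hpf, and at 34.0 CPM (25.6 to 44.2) at 44 hpf. The other copy did not follow it. *zic2a* was at 121 CPM (115 to 127), 110 CPM (101 to 119) and 109 CPM (93.2 to 126). *zic2b* made up 49.3%, 43.4% and 8.09% of the UMIs of the 6 Zic genes in progenitors at 16, 24 and 44 hpf, while *zic1* went from 8.98% to 16.4% and 32.2%. *zic5*, the neighbour of *zic2a*, was at 48.9, 56.0 and 36.4 CPM. *zic6* was the gene with the fewest UMIs, at 19.3, 15.4 and 10.5 CPM, and its intervals overlapped between neighbouring stages (16.9 to 22.0, 12.3 to 19.2 and 6.12 to 16.8).

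**Figure D1:**
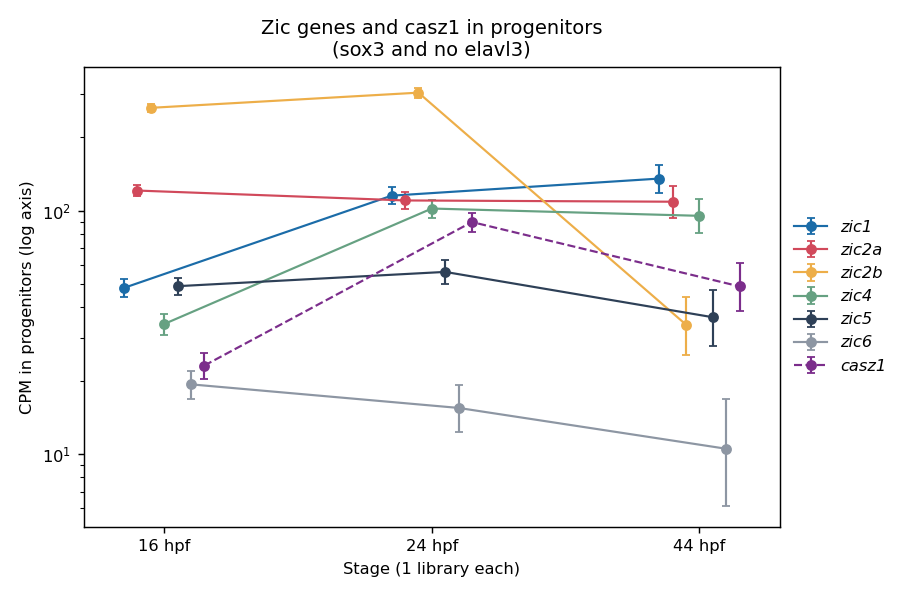
Level of each gene in progenitors (CPM, log axis) at the 3 stages, 1 library each; points are sums over cells, bars are 95% Poisson intervals for counting error, and *casz1* is dashed. *zic2b* goes from 305 CPM at 24 hpf to 34.0 CPM at 44 hpf, while *zic2a* stays between 109 and 121 CPM.

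Between 16 and 24 hpf, 3 of the 7 genes were at least 2-fold higher in progenitors, against 8.16% of the 10784 genes with enough UMIs, and 0 were lower, against 16.3%. The ratios were 3.89 for *casz1* (3.34 to 4.53), 2.98 for *zic4* (2.62 to 3.40) and 2.39 for *zic1* (2.13 to 2.69). Over all genes the median ratio was 0.884. Between 24 and 44 hpf, 0 of 7 were higher, against 8.91% of 8478 genes, and 1 of 7 was lower, against 19.8%, with a median ratio over all genes of 0.881. That gene was *zic2b*, 8.98-fold lower. *casz1* was below the 2-fold mark, with a ratio of 0.544 (0.423 to 0.692), and *zic1*, *zic2a* and *zic4* had ratios of 1.18, 0.988 and 0.933.

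Shares of progenitors with a UMI were compared at equal depth, with 2000 UMIs drawn from each cell. *zic2b* was found in 30.5% (27.9 to 33.1), 27.4% (24.1 to 30.9) and 5.23% (3.38 to 7.68) of progenitors at 16, 24 and 44 hpf, and without drawing in 52.5%, 45.04% and 6.56%. The intervals at 16 and 24 hpf overlap, and no order is read between them. In the other non-neural cells the share at equal depth was 15.4%, 7.29% and 3.35% (1.74 to 5.78), and without drawing 35.7%, 19.7% and 4.99%. At 44 hpf the intervals of progenitors and of other non-neural cells overlapped, so *zic2b* detection per cell could not be set apart from theirs at this depth. *zic1* was found in 8.60%, 15.4% and 17.2% of progenitors at equal depth (25.0%, 32.1% and 22.0% without drawing), against 1.45%, 1.60% and 2.51% of other non-neural cells (5.25%, 6.41% and 3.67% without drawing). *casz1* was found in 4.05%, 12.4% and 5.88% of progenitors (13.7%, 25.04% and 7.83% without drawing) and in 1.81%, 4.45% and 3.07% of other non-neural cells (5.98%, 12.3% and 5.25%). The median depth of the other non-neural cells was 9404, 10054 and 4216 UMIs, against 9840, 7026 and 2727 in progenitors.

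In the RefSeq annotation of assembly GRCz12tu, *zic1* and *zic4*, and *zic2a* and *zic5*, are next to each other, while *zic2b*, *zic6* and *casz1* have no neighbour among the 7 genes. The *zic6* model there overlaps other gene models, so *zic6* counts are uncertain. Of the Gli genes, which act in Hedgehog signalling, *gli2b* and *gli2a* had the most UMIs, at 60.5, 50.3 and 43.2 CPM and at 34.9, 43.0 and 38.9 CPM. *gli3* and *gli1* were between 14.7 and 24.7 CPM at every stage. The 5 Glis genes measured had between 0 and 0.377 CPM in progenitors.

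Set against progenitors, cells with *elavl3* had ratios of the 7 genes between 0.475 and 0.841 at 16 hpf, between 0.631 and 1.11 at 24 hpf and between 0.219 and 0.695 at 44 hpf. At 16 hpf 3 of the 7 genes were at least 2-fold lower in neurons (background 1.93%), namely *casz1* with a ratio of 0.475, *zic6* with 0.484 and *zic1* with 0.4996, which all lie close to the 2-fold mark. The count was between 0 and 5 under other settings, and was 0 when cells with crest genes and *elavl3* were put into crest. At 24 hpf 0 of 7 were lower (background 2.46%), and *zic2b* was at 337 CPM in neurons against 305, a ratio of 1.11 that was 0.786 with groups and levels from 2000 drawn UMIs. At 44 hpf 6 of 7 were lower (background 15.8%), with ratios from 0.219 for *zic6* to 0.495 for *casz1*, and the exception was *zic2b* at 23.6 against 34.0 CPM.

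Cells with *elavl3* and no *sox3*, 68 at 24 hpf and 1102 at 44 hpf, showed where the Zic genes were scarce. All 7 genes were at least 2-fold lower there than in progenitors at 24 hpf, against 19.6% of genes, and so were all 6 genes with enough UMIs at 44 hpf, against 19.6%. *zic1* had 1 UMI in the 68 cells at 24 hpf, 2.10 CPM against 115 in progenitors, and at 44 hpf it was at 17.3 CPM (12.6 to 23.0) against 135. *zic4* was at 2.10 CPM at 24 hpf and 3.38 CPM at 44 hpf. *zic2a* was at 8.40 and 4.50 CPM and *zic2b* at 12.6 and 8.25 CPM. *zic5* and *zic6* had 0 UMIs there at 24 hpf. With its 0 set to 3 UMIs, *zic5* was 8.88-fold lower than in progenitors.

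*casz1* had the ratio nearest to 1 of the genes with a UMI in those cells. It was at 31.5 CPM (17.6 to 52.0) at 24 hpf, 0.351 times the level of progenitors (0.195 to 0.585), and at 22.5 CPM (17.2 to 29.0) at 44 hpf, 0.461 times (0.324 to 0.653). At 44 hpf its interval lay above those of *zic1* (0.0907 to 0.176), *zic2a* (0.021 to 0.0742), *zic4* (0.0159 to 0.0692) and *zic5* (0.0161 to 0.127) and overlapped that of *zic2b* (0.141 to 0.405). In cells with both *sox3* and *elavl3* at 44 hpf *zic1* was at 110.3 CPM (97.8 to 124), whose interval overlaps that of progenitors, and *casz1* at 25.9 CPM (20.0 to 33.0), whose interval overlaps that of cells with *elavl3* alone. At 16 hpf the group with *elavl3* and no *sox3* had 21 cells, of which 16 carried at least 2 UMIs of the crest genes *sox10* and *foxd3*, and it is not read as neurons. At 24 and 44 hpf the share of such crest cells, or of ganglion cells with fewer than 3 list markers, was not tested. Cells of the otic and cranial ganglia list with at least 2 UMIs of *elavl3* had *casz1* at 102 CPM and *zic1* at 2.49 CPM at 24 hpf. The 24 and 44 hpf groups are therefore not read as hindbrain neurons alone.

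**Figure D2:**
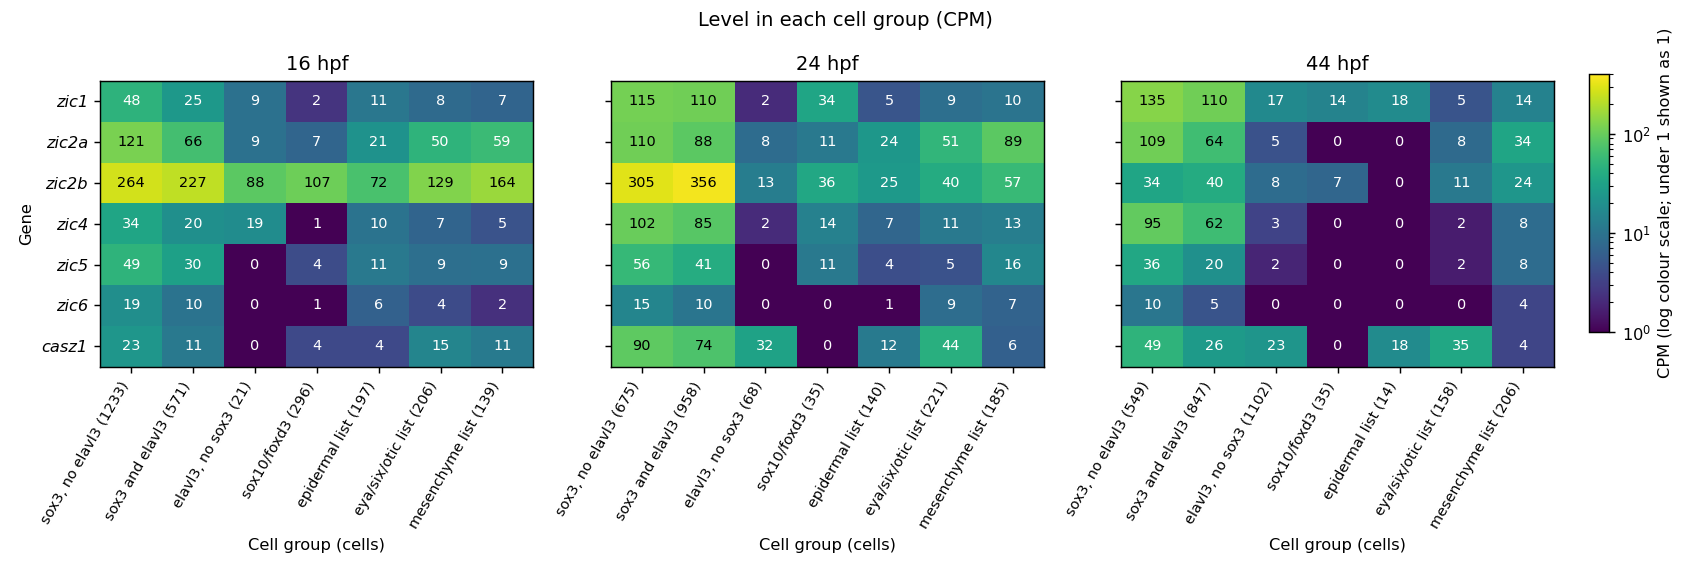
Level of each gene (CPM, rounded in each square, log colour scale with values under 1 shown as 1) in the cell groups of the 3 stages, with the number of cells in parentheses. At 44 hpf the Zic genes are between 0 and 17.3 CPM in cells with *elavl3* and no *sox3*, and *casz1* is at 22.5 CPM.

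Grouping the neurons by the genes of their class, for each cell with genes of a single list, set *casz1* apart from *zic1* at 44 hpf. At 24 hpf *zic2b* was at 656 CPM (613 to 702) in the 164 cells with genes of the *atoh1*, *barhl*, *lhx2b* and *lhx9* list. It was at 91.2 CPM (68.9 to 118) in the 79 cells with *otpa* or *otpb*. The remaining lists lay between 144 and 359 CPM. *atoh1a* is also a gene of the dorsal progenitor list used below. Of the 1026 cells with *elavl3* at 24 hpf 958 also had *sox3*, and those without it held 6 of 2869 *zic2b* UMIs. The 656 CPM is therefore not read as a level of mature neurons. *zic1* was also highest in the *atoh1* list at 24 hpf, at 151 CPM (131 to 174), with the motor list (*isl1*, *isl2a*, *phox2a*, *phox2bb*, *mnx1*, *tbx3a* and others) at 131 CPM (109.8 to 155), whose interval overlaps it.

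At 44 hpf *casz1* was at 93.2 CPM (64.5 to 130.2) in the 151 cells of the motor list, from 34 UMIs in 22 cells. In the other lists it was at 10.8 CPM in the *atoh1* list, 7.30 CPM in the *lbx1a*, *pax2* and *lhx1* list, 5.33 CPM in the *otp* list, 10.6 CPM in the V2 list and 0 UMIs in the *tlx* and *lmx1bb* list. The motor list was 10.7-fold above the other lists together (5.85 to 20.0). Cells outside the single lists are not part of this ratio. The motor list is not specific to motor neurons, as the paper also uses *phox2a* and *phox2bb* to tell its noradrenergic clusters apart. Cells of the otic and cranial ganglia list are not part of the ratio either. Those with at least 2 UMIs of *elavl3* had *casz1* at 54.2 CPM (33.1 to 83.7) at 44 hpf, whose interval overlaps that of the motor list. The 258 cells with no list gene were at 45.3 CPM (31.4 to 63.3), from 34 UMIs in 22 cells. The 734 cells with genes of several lists were at 19.6 CPM (14.0 to 26.7). Among all cells with *elavl3*, *casz1* was compared between those with a UMI of each of 6 motor list genes. It was at 246 CPM (168 to 348) in the 48 cells with *tbx3a*, 130 CPM (91.0 to 180) in the 113 with *isl1* and 90.5 CPM (50.7 to 149) in the 67 with *isl2a*. It was at 61.9 CPM (42.4 to 87.4) in the 197 cells with *phox2a* and 48.5 CPM (34.0 to 67.1) in the 268 with *phox2bb*, and *mnx1* marked 4 cells. The intervals of *tbx3a* and *isl1* overlap. The motor list and its single genes were singled out after the values had been seen. *zic1* was at 57.5 CPM in the motor list, 1.04 times its level in the other lists, and was highest, at 181 CPM, in the cells with no list gene. Higher levels in the motor list were not particular to *casz1*. *zic5* was 4.83 times its level in the other lists, from 12 UMIs in the motor list. *zic2b* was at 2.17 times, *zic4* at 2.03 times and *zic2a* at 1.09 times. The V2 list, a class of ventral interneurons, had 0 UMIs of *zic1*, *zic2a* and *zic4* in 93 cells at 44 hpf, which allows up to 10.6 CPM.

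Crest cells held less of the Zic genes than progenitors, with *zic2b* as the partial exception at 16 hpf. All 7 genes were at least 2-fold lower in crest at 16 hpf (background 10.8%), 6 of 7 at 24 hpf (13.6%) and 5 of 6 with enough UMIs at 44 hpf (17.3%), the last 2 from 35 cells each, and the 44 hpf count was 1 with groups and levels from 2000 drawn UMIs. *zic2b* was at 107 CPM (96.4 to 119) in the 296 crest cells of 16 hpf, 0.406 times the level of progenitors, and was found in 18.9% of them at equal depth and in 55.4% without drawing, where the median depth was 11179 UMIs. The other 6 were between 0.929 CPM for *zic4* and *zic6* and 7.12 CPM for *zic2a*, 6.21-fold to 36.8-fold below progenitors. *foxd3* and *sox10* were at 780 and 484 CPM in these cells and *sox3* at 199 CPM.

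At 24 hpf *zic2b* was at 36.3 CPM (19.3 to 62.1) in crest and *zic1* at 33.5 CPM (17.3 to 58.6), the latter from 12 UMIs in 2 of the 35 cells. *casz1* had 0 UMIs, at least 10.7-fold lower than in progenitors. At 44 hpf only *zic1* (2 UMIs) and *zic2b* (1 UMI) were found in crest, and the *zic2b* ratio of 0.212 had an interval from 0.00528 to 1.23. A count of 0 in these 35 cells has a Poisson interval up to 26.6 CPM.

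The other non-neural cells also had less. At 16 hpf 7 of 7 genes were at least 2-fold lower than in progenitors (background 5.32%), at 24 hpf 6 of 7 (6.31%) and at 44 hpf 6 of 7 (12.1%). The exceptions were *zic2a* at 24 hpf, at 57.5 against 110 CPM, and *zic2b* at 44 hpf, at 17.5 against 34.0 CPM. In cells of the mesenchyme list, which includes *colec12*, *foxc1a* and *prrx1a*, *zic2b* was at 163.5 CPM (142 to 187) at 16 hpf, 56.9 CPM (46.7 to 68.7) at 24 hpf and 23.6 CPM (14.4 to 36.4) at 44 hpf. *zic2a* in the same cells was at 58.8 CPM (46.4 to 73.5), 88.8 CPM (75.9 to 103) and 34.2 CPM (22.9 to 49.1). So *zic2b* was lower and *zic2a* higher at 24 than at 16 hpf in the mesenchyme list, without overlap of the intervals of either gene, while *zic1* and *zic4* were between 4.58 and 14.1 CPM there at all stages.

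In the epidermal list, with keratin and junction genes, *zic2b* was at 72.4 CPM at 16 hpf and 25.4 CPM at 24 hpf, and the other 6 genes were between 0.606 and 23.6 CPM at these stages. In the 16 cells of the vascular list at 24 hpf, *zic2a* was at 109 CPM (66.6 to 168) from 20 UMIs in 8 cells. The list of *eya1*, *six1b*, *neurod1* and otic genes gathered 206, 221 and 158 cells. At 16 hpf these cells also had *twist1a*, which the paper uses with *foxd3* to mark neural crest, at 270.2 CPM, so they are named by the list alone.

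*casz1* was at 15.2 CPM (10.3 to 21.6), 44.2 CPM (35.9 to 53.9) and 35.1 CPM (22.0 to 53.2) in that list, the highest of the non-neural lists of 20 or more cells at 24 and 44 hpf. Divided by *elavl3* after the values had been seen, it was at 102 CPM in the 91 cells with at least 2 UMIs of *elavl3* at 24 hpf and at 8.65 CPM in the 107 cells with 0. At 44 hpf it was at 54.2 CPM in 97 such cells and at 4.53 CPM in the 52 without *elavl3*. The cells with at least 2 UMIs of *elavl3* held 82 of the 130 *casz1* UMIs of all other non-neural cells at 24 hpf. At 44 hpf they held 20 of 26. The *casz1* levels of the other non-neural cells at these stages thus come mostly from cells with *elavl3*. In the same cells with *elavl3* the 6 Zic genes were between 0 and 17.4 CPM at 24 hpf and between 0 and 8.13 CPM at 44 hpf.

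Along the dorsoventral axis, all of the genes that could be compared were higher in dorsal than in ventral progenitors. Progenitors were grouped by genes of a single list: dorsal (*msx1a*, *msx1b*, *msx3*, *olig4*, *atoh1a*, *pax3a*, *wnt8b*), medial (*gsx1*, *gsx2*, *ptf1a*, *lbx1b*, *pax7a*, *pax7b*) or ventral (*dbx1a*, *nkx6.1*, *nkx2.2a*, *olig2*, *foxn4* and others), with roof plate and floor plate cells set aside by 2 markers. Many cells carried genes of several lists and were left out, 707 of 1233 at 16 hpf, 420 of 675 at 24 hpf and 199 of 549 at 44 hpf. Dorsal over ventral, 7 of 7 genes were at least 2-fold higher at 16 hpf (background 3.84%), 6 of 6 with enough UMIs at 24 hpf (3.32%) and 5 of 5 at 44 hpf (4.79%).

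*zic2b* was at 509 CPM (478 to 541) in the 224 dorsal cells of 16 hpf and at 17.0 CPM (10.6 to 25.7) in the 142 ventral cells, a ratio of 30.0 (19.7 to 48.1). *casz1* was at 56.9 CPM (46.9 to 68.4) against 3.08 CPM at 16 hpf and at 250 CPM (213 to 291) against 7.50 CPM at 24 hpf, ratios of 18.4 and 33.3. *zic1* was at 106 against 4.63 CPM at 16 hpf, 205 CPM against 1 UMI at 24 hpf and 271 CPM against 1 UMI at 44 hpf. *zic2a* at 44 hpf was at 327 CPM (260 to 406) in 84 dorsal cells and had 0 UMIs in 116 ventral cells. With that 0 set to 3 UMIs its ratio was 37.4, and 34.9 to 76.2 over the alternatives. Ventral levels were between 0 and 17.0 CPM for every gene and stage.

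**Figure D3:**
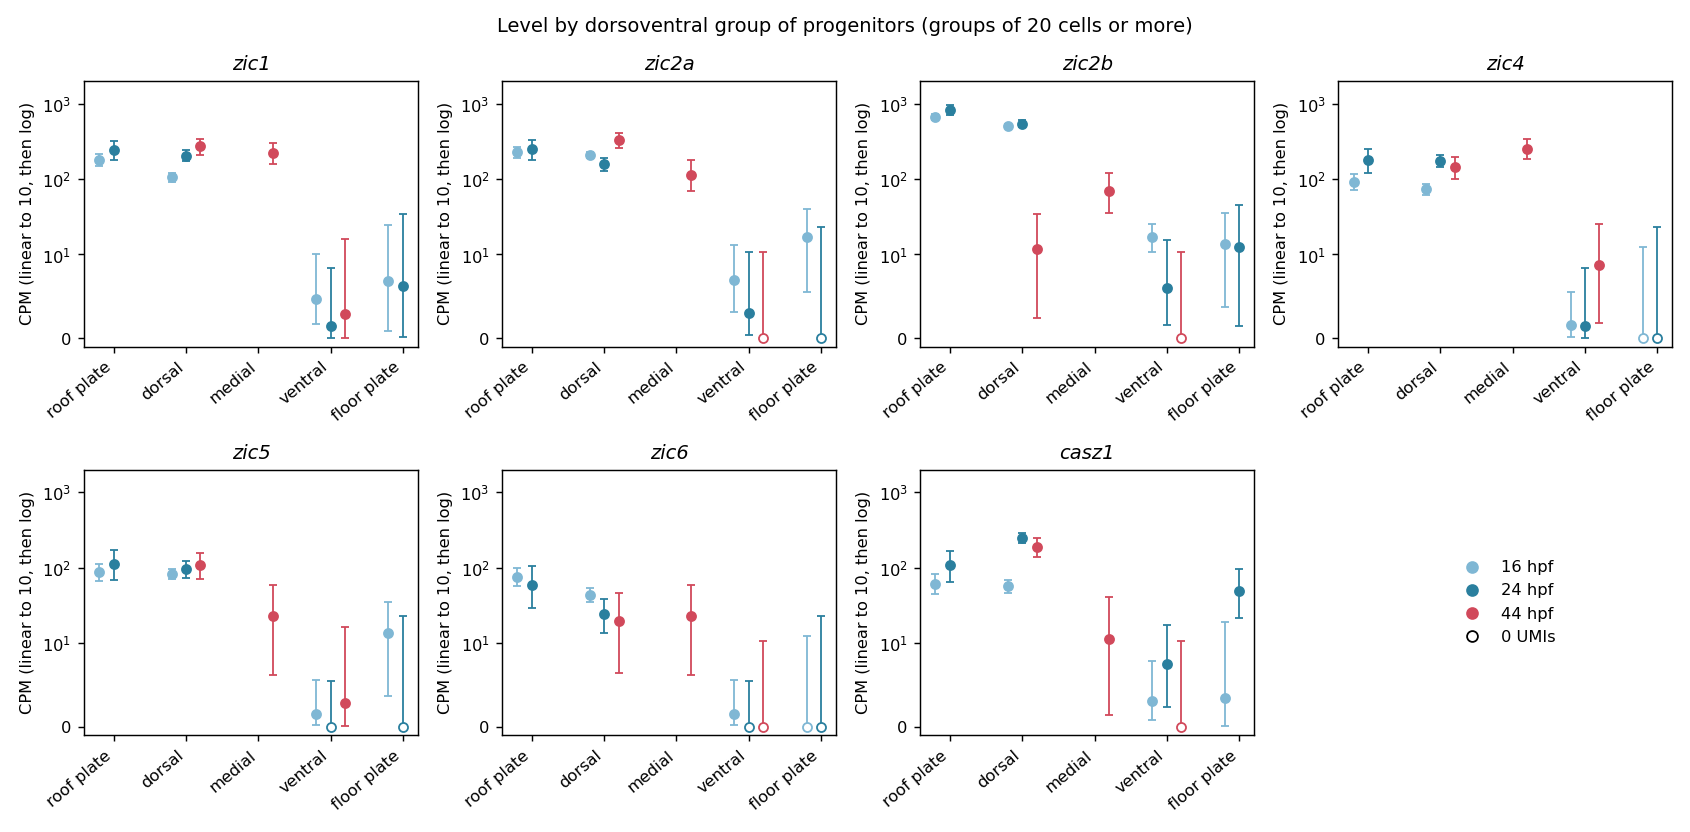
Level of each gene (CPM; axis linear to 10, then log) in dorsoventral groups of at least 20 progenitors at each stage, with 95% Poisson intervals; open points are groups with 0 UMIs. At 44 hpf *casz1* is at 187 CPM in dorsal cells and 11.5 CPM in medial cells. *zic2b* is at 11.9 and 68.8 CPM there, from 3 and 12 UMIs, under the 20 set for a comparison.

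At 44 hpf, the stage with enough medial cells (67), the members split. *casz1* was at 187 CPM (138 to 249) in dorsal and 11.5 CPM (1.39 to 41.4) in medial cells, a ratio of 16.3 (4.28 to 139). *zic5* was at 108 against 22.9 CPM and *zic2a* at 327 against 115 CPM, ratios of 4.69 and 2.85. *zic1* was near equal, 271 against 224 CPM. *zic4* leaned the other way, 143 CPM (100.5 to 199) in dorsal and 252 CPM (183 to 339) in medial cells, a ratio of 0.569 (0.356 to 0.904). *zic2b* had 3 UMIs in dorsal and 12 in medial cells, under the 20 set for a comparison. The *zic4* ratio was 1.06 when each cell was given to the list with most UMIs, a setting added after seeing the data.

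The roof plate groups, with at least 2 of the genes *bmp5*, *nog1*, *gdf6a*, *bmp6*, *wnt3a* and *lmx1bb*, had the highest *zic2b*, 670 CPM (612 to 733) in 70 cells at 16 hpf and 834 CPM (708 to 976) in 20 cells at 24 hpf. *zic1* was 1.70-fold above the dorsal group in them at 16 hpf (1.35 to 2.13). *casz1* differed by stage in this respect. It was at 61.6 against 56.9 CPM in roof plate and dorsal cells at 16 hpf, and at 108 against 250 CPM at 24 hpf, a ratio of 0.430 (0.256 to 0.686). In floor plate cells *casz1* had 8 UMIs in 6 of 23 cells at 24 hpf, 49.5 CPM (21.4 to 97.5), while *zic1* had 1, *zic2b* 2 and *zic2a*, *zic4*, *zic5* and *zic6* had 0.

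Along the anteroposterior axis, *zic2b* alternated between segments from r2 to r6. Progenitors were put into segment groups by *eng2a* or *eng2b* (midbrain-hindbrain boundary and r1), *hoxa2b* alone (r2), *egr2b* (r3, or r5 with *mafba*), *hoxb1a* (r4), *mafba* alone (r6) or *hoxd4a* (r7). At 16 hpf *zic2b* was at 341 CPM (311 to 373) in the r3 group and 441 CPM (410 to 473) in the r5 group. It was at 215 CPM in r2, 102 CPM (76.0 to 134) in r4, 212 CPM in r6, 199 CPM in r7 and 231 CPM in the boundary and r1 group. At 24 hpf the r3 and r5 groups were at 430 and 524 CPM and the r2, r4 and r6 groups at 122, 132 and 211 CPM, with r7 at 362 CPM (330 to 396) and the 6 cells of the boundary and r1 group at 199.7 CPM (103 to 349). The 24 hpf segments were added after the 16 hpf values had been seen. The paper gives *hoxa2* as a gene of r2 to r5, so cells of r3 to r5 whose other segment genes were missed would fall into the r2 group. How many did so was not tested. The r5 group had 180 cells at 16 hpf and 20 at 24 hpf, and the r3 group 158 and 117.

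For r3 and r5 together over r2, r4 and r6, 1 of 7 genes, *zic2b*, was at least 2-fold higher at 16 hpf (background 1.95%), with a ratio of 2.01 (1.83 to 2.21), and at 24 hpf (background 1.65%), with 2.97 (2.52 to 3.53). At 24 hpf *casz1*, at 1.93 (1.42 to 2.65), lay just under the mark, and the count was 2 or 3 under other settings, with *casz1* between 1.21 and 2.898, *zic4*, at 1.59, up to 2.92 and *zic6*, at 1.56, up to 2.08. The 16 hpf ratio lies at the 2-fold mark and was below it when progenitors needed 2 UMIs of *sox3* or other non-neural cells 2 markers. Within cells that had a dorsal gene the ratios were 1.94 (1.77 to 2.13) and 2.63 (2.22 to 3.12), close to those over all progenitors. These were 277 and 281 cells at 16 hpf and 110 and 113 cells at 24 hpf. They are most of the cells of the segment groups, so these ratios are not independent of those over all progenitors. *zic2a* had a ratio of 0.813 at 16 hpf. The r5 group at 24 hpf had 20 cells and the r4 group 23. The r2 group then had 91 cells and the r6 group 43, so r2 was the largest part of the r2, r4 and r6 side. All 7 genes had ratios above 1 at 24 hpf, from 1.255 for *zic2a* to 2.97 for *zic2b*.

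Other members varied by segment in other ways at 16 hpf. *casz1* was at 35.6 CPM (25.9 to 47.6) in r2, 34.7 CPM in r3 and 29.2 CPM in r5, and at 12.1 CPM in the boundary and r1 group, 11.8 CPM (4.31 to 25.6) in r4 and 6.67 CPM (3.45 to 11.7) in r7. At 24 hpf it was at 95.3 CPM in r7 and 106 CPM in r4, and at 27.4 CPM (16.5 to 42.8) in r2, the lowest of the segment groups then. This was not particular to *casz1*. Each of the 6 Zic genes was also lower in r2 than in any of r3 to r7 at 24 hpf, in part with overlapping intervals. *zic2a* went from 75.7 CPM (62.1 to 91.5) in r3 to 160 CPM (142 to 180) in r6, and *zic5* from 23.4 CPM in r3 to 61.7 CPM in both r6 and r7. *zic6* was at 33.2 and 30.8 CPM in the boundary and r1 group and in r2, against 9.79 to 20.8 CPM in r3 to r7. *zic1* lay between 40.6 and 54.5 CPM in all 7 groups.

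**Figure D4:**
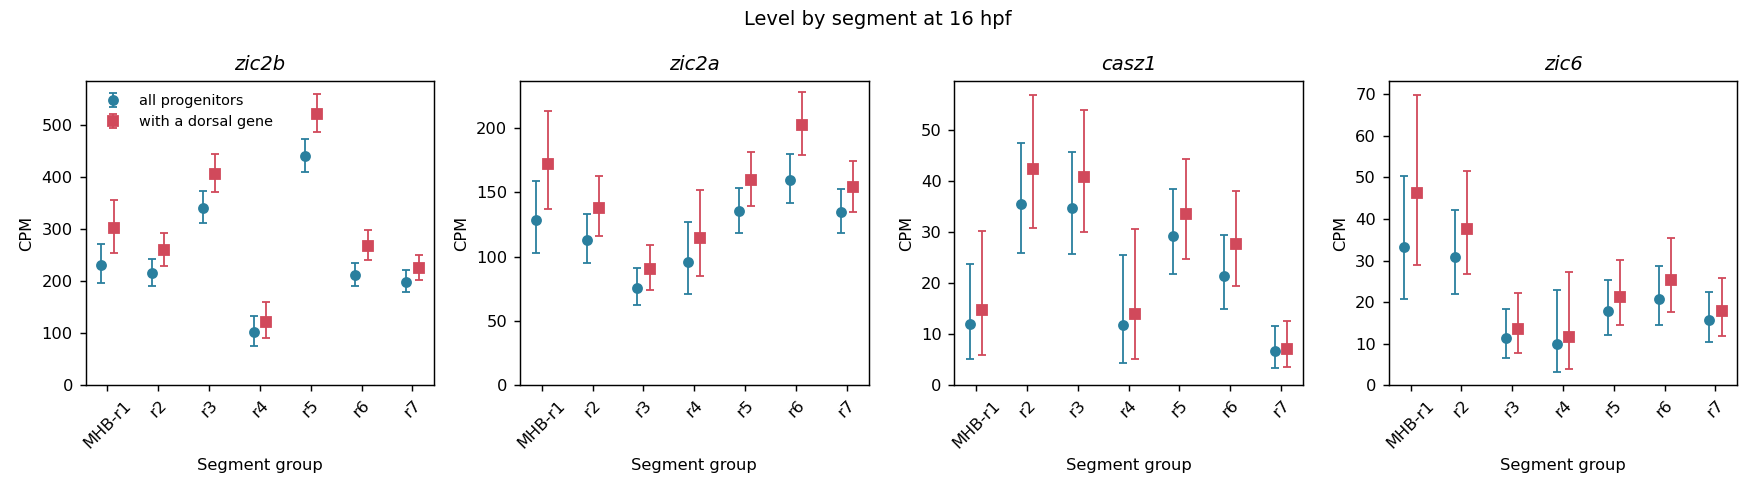
Level of 4 of the genes (CPM) by segment group of progenitors at 16 hpf, for all progenitors (circles) and for those with a UMI of a dorsal gene (squares), with 95% Poisson intervals. *zic2b* is at 341 and 441 CPM in r3 and r5 and at 102 CPM in r4; *casz1* is at 6.67 CPM in r7.

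The genes were found in the same progenitors more often than independent detection gives. At equal depth, of pairs expected together in at least 3 cells, 12 of 19 were found together in at least 2 times the expected number of cells at 16 hpf, 12 of 16 at 24 hpf and 9 of 10 at 44 hpf. The background over all gene pairs was 0.764%, 0.71% and 0.724%. Those pairs were not matched to the 7 genes in their share of cells with a UMI. A gene found in most cells cannot reach 2 times the expected number with any other gene, so the background is not a like comparison. With all UMIs the counts were 7 of 21, 14 of 21 and 15 of 15 pairs. With the highest doublet scores left out they were 8 of 17, 11 of 16 and 9 of 11, and with all cells kept 9 of 18, 14 of 19 and 11 of 12. The doublet scores came from a doublet caller that was taken as not having worked. A part of doublets in these counts was therefore not tested. The median observed over expected number was 2.197 at 16 hpf (range 1.18 to 2.91), 2.22 at 24 hpf and 2.72 at 44 hpf, against 1 over all pairs. For *zic1* and *zic4* it was 2.91 (21 cells, 7.22 expected), 2.52 (40 cells, 15.9 expected) and 3.55 (33 cells, 9.29 expected).

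*zic1* and *casz1* were together in 11, 35 and 12 cells, 2.56, 2.70 and 2.58 times the expected number. Of the progenitors with *casz1*, 22.0%, 41.7% and 44.4% also had *zic1*. *zic2b* was found in 30, 43 (51.2%) and 1 (3.70%) of the *casz1* progenitors in the same order of stages. The lowest pair at 16 hpf was *zic1* with *zic5*, 12 cells against 10.1 expected. When the expected number was summed within the dorsoventral groups of progenitors, 0 of 21, 1 of 16 and 5 of 12 pairs reached 2 times the expected number at 16, 24 and 44 hpf.

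**Figure D5:**
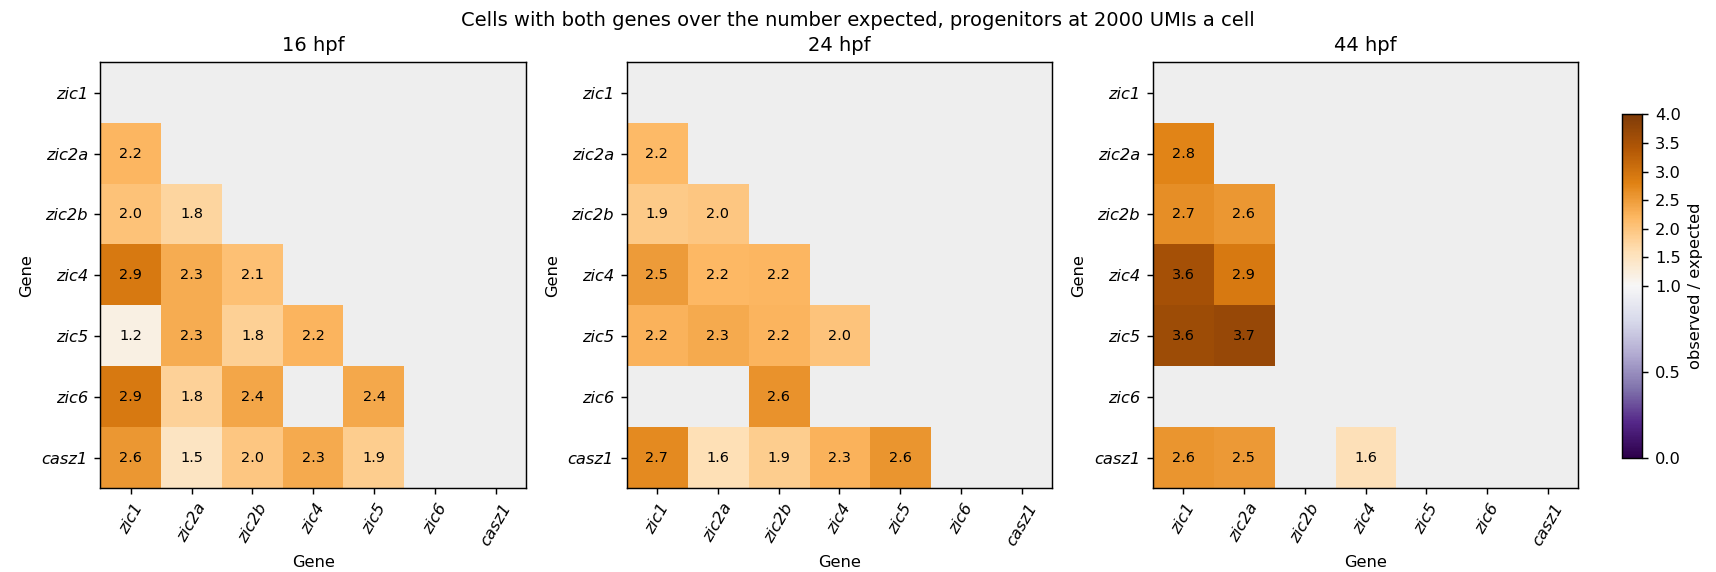
Number of progenitors with both genes over the number expected from independent detection, with 2000 UMIs drawn from each cell, for each pair expected in at least 3 cells (other squares are grey). *zic1* and *zic4* are at 2.91, 2.52 and 3.55 at 16, 24 and 44 hpf, and all the pairs shown are above 1.

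At equal depth 53.9%, 55.3% and 67.1% of progenitors had none of the 7 genes at 16, 24 and 44 hpf, and 10.4%, 16.0% and 8.28% had at least 3. In crest at 16 hpf 0 of 296 cells had 3 or more, which allows up to 1.24%, and of other non-neural cells 0.906% did. Of neurons at 44 hpf 82.6% had none of the genes, and all 5 pairs with enough cells were above 2 times the expected number, with a median of 5.49 (background 1.63%). At 16 and 24 hpf 8 of 8 and 11 of 16 pairs in neurons were (backgrounds 0.728% and 1.4%). *zic2a* and *zic4* were together in 27 neurons at 44 hpf against 4.03 expected.

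Progenitors at 44 hpf with at least 2 mitotic genes (146 cells, against 349 with 0) had 1 of 6 genes with enough UMIs at least 2-fold higher, against a background of 10.4%. It was *casz1*, at 72.6 against 33.6 CPM, a ratio of 2.16 (1.31 to 3.58). The other 5 had ratios from 1.15 for *zic4* to 1.74 for *zic5*. The 2 groups of cells differed in depth, with medians of 3587 and 2558 UMIs. At equal depth *casz1* was found in 8.53% (4.33 to 14.75) and 4.59% (2.47 to 7.73) of them, and these intervals overlap. At 16 and 24 hpf 1118 and 461 progenitors had at least 2 mitotic genes and 43 and 114 had none, and *casz1* was at 23.4 against 21.1 CPM and at 92.1 against 66.3 CPM.

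Across the 49 cell groups of at least 20 cells, *zic1* and *zic4* had the most similar pattern among the 7, with a Pearson correlation of log2(CPM + 5) of 0.944, and *zic2a* and *zic5*, the other adjacent pair, had 0.869. Some pairs that are not adjacent came close to that, with 0.840 for *zic2a* and *zic4*, 0.838 for *zic4* and *zic5* and 0.826 for *zic2a* and *zic6*. The remaining pairs were lower. *zic2a* and *zic2b*, the 2 copies of Zic2, had 0.674. *casz1* had from 0.5001 with *zic2b* to 0.643 with *zic4*. The groups share libraries and cell depth, so these values are descriptions. Of 8944 genes compared, the Wnt receptor gene *fzd10* was nearest to *zic5* (0.871), *zic2a* (0.866), *zic6* (0.839) and *zic2b* (0.798), and was among the first 3 for all 6 Zic genes. The others among the first 3 were *boc*, a Hedgehog co-receptor, for *zic2a*, *zic5* and *zic6*, *mdkb*, a midkine growth factor, for *zic1*, *zic2a* and *zic4*, and *zgc:112332* for *zic1* and *zic4*. *axin2*, a Wnt target, and *plxdc2* were named for *zic2b*, *fuom* for *zic6* and *pdgfaa*, a platelet-derived growth factor, for *zic5*, and all of these had 0.682 to 0.798. For *casz1* they were *pdgfaa* (0.701), *myca*, a Myc factor (0.620), and *epha2a*, an Eph receptor (0.602).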

How the data were processed

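Single cells of dissected hindbrain and surrounding tissue were measured with the 10x Chromium 3′ v2 kit in 1 library per stage. The authors made the deposited tables of raw UMI counts per gene and cell with Cell Ranger (version not given in the sources used here), on genome GRCz10 with Ensembl release 89 gene models, without normalisation; a table of the libraries aggregated was not used. Cells over 3 median absolute deviations from their library's median in UMIs, genes or mitochondrial share were left out. Counts were summed over groups and scaled to CPM in Python 3.11.15 with numpy 2.4.6 and scipy 1.17.1. Intervals were exact Poisson intervals for levels, conditional binomial for ratios and Clopper-Pearson for shares. A count of 0 was set to 3 UMIs over the group for the bound of a ratio. Scrublet in scanpy 1.11.5 called 0.41%, 0.39% and 0.028% of cells, which was taken as not having worked, so doublets were kept. Equal depth means 2000 UMIs drawn per cell, which left out 658 cells at 44 hpf. The genes and marker lists were chosen with earlier results of these data known. All 7 genes were described in every comparison; the Gli and Glis genes and, for each of the 7, the 3 genes outside the family with the highest correlation among those with at least 200 UMIs were named by rule, and 1 gene that the rule would name is not reported here. The calling and co-detection steps were tested on simulated data. Alternatives are described in the closing section.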

Additional observations from a re-analysis of the deposited data

How the results depend on the processing

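The 21 counts of genes and pairs were recomputed under 15 alternatives, 2 of them chosen after seeing the data (dorsoventral groups by the list with most UMIs, crest also with *elavl3*). Scaling without mitochondrial, ribosomal protein and haemoglobin genes, leaving out the highest doublet scores, crest by both genes and dorsoventral groups by most UMIs moved none by over 1.5 times; crest by both genes gave no 44 hpf count. The count of genes lower in neurons at 16 hpf, 3, was 1 with all cells kept, with cells judged on the log scale, with the mean CPM of single cells and with 2 markers for other non-neural cells, 5 with 2 UMIs for progenitors and neurons, and 0 with crest also with *elavl3*. At 24 hpf it was 3 with 2000 drawn UMIs and 7 for neurons without *sox3*, against 0. The count lower in crest at 44 hpf, 5, was 1 with 2000 drawn UMIs and 3 with 2 markers. The count higher in r3 and r5, 1, was 0 at 16 hpf with 2 UMIs for progenitors and neurons and with 2 markers, and at 24 hpf was 2 with all cells, the log scale, the mean CPM or 2 markers and 3 with 2 UMIs for segments. The count lower from 24 to 44 hpf was 2 with the mean CPM, against 1. Pairs together numbered 7 of 21 at 16 hpf and 15 of 15 at 44 hpf with all UMIs, and 0 of 21, 1 of 16 and 5 of 12 within dorsoventral groups. With the highest doublet scores left out they numbered 8 of 17 at 16 hpf, against 12 of 19, which lies at the limit of 1.5 times. Those scores came from the Scrublet run that was taken as not having worked. With groups and levels from 2000 drawn UMIs, 63 of 112 ratios were counted as unchanged, 46 as moved and 3 as reversed. For neurons without *sox3*, 17 of 118 moved. With 2 markers 14 of 119 moved, and with 2 UMIs for progenitors and neurons 12 of 118. Each other alternative moved between 0 and 7, and only the 2000 drawn UMIs reversed any. The 2000 drawn UMIs thus changed more ratios than those that crossed 1. Of the ratios at least 2-fold from 1, those that crossed 1 did so with 2000 drawn UMIs. They were *zic6* in other non-neural cells at 24 hpf (1.22, from 6 UMIs), whose cause was not tested, and *zic2b* (1.81) and *casz1* (1.23) in crest at 44 hpf. Crest at 44 hpf then had 0 UMIs of *zic2b* and *casz1*, and the value is set by 3 UMIs. The same holds for *zic5* there (1.76) and *zic6* in crest at 24 hpf (4.46). Ratios under 2-fold also crossed 1: *zic2b* in neurons at 24 hpf (0.786 with 2000 drawn UMIs, 0.0413 for neurons without *sox3*), *zic5* in r3 and r5 at 24 hpf (0.715), *zic4* dorsal over medial, *zic2a* from 24 to 44 hpf, *zic1*, *zic4*, *zic5* and *casz1* in r3 and r5 at 16 hpf, and *zic1* and *zic2a* in the motor list. The ratio from 24 to 44 hpf of *zic2b* was 0.0999 to 0.118 over the alternatives, and that of *casz1* from 16 to 24 hpf 3.48 to 4.04. The dorsal over medial ratio of *zic4* was 0.470 to 1.06 (1.06 with groups by most UMIs), and *casz1* in the motor list over the other neuron lists 7.48 to 17.2. No paired analysis was possible because each stage has 1 library.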
